A study of Homo sapiens with 9 samples.

Results

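The 10 genes described here encode secreted inflammatory cytokines and CXC chemokines: *IL6*, *IL11*, *LIF*, *IL1A*, *IL1B*, *CSF2*, *CXCL8*, *CXCL1*, *CXCL2* and *CXCL3*. They were listed by symbol for what their products do, but with earlier results of these data known. All 10 of them were found among the 60708 genes counted. RNA was sequenced from 9 libraries labelled as the human triple-negative breast cancer line MDA-MB-231, 3 of them wild type (WT) and 3 each of the clones CS16 and CS19, both labelled *SNAI1*-KO. *SNAI1* encodes a zinc-finger transcription factor of epithelial-mesenchymal transition, and the study asked which genes depend on it. The clones came from CRISPR/Cas9 editing with pooled guides that cut in exon 1, in exon 2 and where exon 2 meets intron 2, followed by puromycin selection and growth from single cells. All groups were grown in DMEM with 10% fetal bovine serum and antibiotics and received no treatment. Each *SNAI1*-KO group was thus 1 clone, so loss of *SNAI1* and any other property of these 2 clones cannot be told apart. Nothing in the labels says that replicates were separate cultures, and the p-values therefore measure the spread between these libraries, which may be technical.

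Cytokines of this group carry inflammatory signals between cells. IL-6, IL-11 and LIF bind receptor chains that act with the shared signaling subunit gp130, through JAK kinases and STAT3. The IL-1 cytokines act through MYD88 and NF-kB, and CXCL1, CXCL2, CXCL3 and CXCL8 attract neutrophils through the receptor CXCR2. In cells with active NF-kB or AP-1 these genes are typically induced together, and mesenchymal triple-negative breast cancer lines are known for secreting many of them. *CXCL1*, *CXCL2*, *CXCL3* and *CXCL8* lie in a chemokine cluster on chromosome 4, and *IL1A* and *IL1B* are neighbours on chromosome 2.

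The promoters are shown first because 3 near-copies of one promoter belong to genes that did not behave alike in these libraries. The sequences are the 150 bases before the RefSeq transcription start (GRCh38.p14), written 5′ to 3′ on the strand of the gene, with matches to the NF-kB consensus (*CXCL1*, *CXCL2*, *CXCL3*, *IL6*) or to the AP-1 motif TGANTCA (*CXCL8*, *IL11*) in capitals. They span chr4:73869243-73869392 on the plus strand for *CXCL1*, chr4:74099196-74099345 on the minus strand for *CXCL2*, chr4:74038690-74038839 on the minus strand for *CXCL3*, chr7:22727050-22727199 on the plus strand for *IL6*, chr4:73740419-73740568 on the plus strand for *CXCL8* and chr19:55370464-55370613 on the minus strand for *IL11*.
CXCL1: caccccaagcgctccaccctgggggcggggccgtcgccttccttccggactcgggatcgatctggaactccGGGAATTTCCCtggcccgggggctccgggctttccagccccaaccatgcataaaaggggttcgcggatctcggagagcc
CXCL2: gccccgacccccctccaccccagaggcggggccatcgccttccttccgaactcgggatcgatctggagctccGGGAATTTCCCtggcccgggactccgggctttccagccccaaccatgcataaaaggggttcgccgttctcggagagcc
CXCL3: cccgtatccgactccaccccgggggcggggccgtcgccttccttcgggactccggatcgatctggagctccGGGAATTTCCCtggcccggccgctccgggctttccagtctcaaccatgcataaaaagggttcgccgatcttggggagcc
IL6: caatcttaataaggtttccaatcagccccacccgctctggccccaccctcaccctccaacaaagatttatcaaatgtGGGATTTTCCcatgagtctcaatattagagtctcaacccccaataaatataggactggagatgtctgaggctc
CXCL8: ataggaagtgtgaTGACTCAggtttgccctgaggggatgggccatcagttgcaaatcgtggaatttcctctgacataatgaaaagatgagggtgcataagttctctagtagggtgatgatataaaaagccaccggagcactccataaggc
IL11: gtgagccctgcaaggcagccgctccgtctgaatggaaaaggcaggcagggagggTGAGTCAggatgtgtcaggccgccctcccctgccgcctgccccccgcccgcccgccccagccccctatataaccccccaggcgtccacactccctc

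The same 11 letters with a match on each strand stood in all 3 GRO-type chemokine promoters, starting 79 bases before the start of *CXCL1* and *CXCL3* and 78 bases before that of *CXCL2*. Of the 9 members with a promoter in the table, 4 held the NF-kB consensus within 250 bases before the start on either strand, as did 5.21% of 35116 promoters. The AP-1 motif stood in 3 members (*CXCL8*, *IL11* and *IL1A*) and in 6.57% of promoters. The TATA motif TATAAA stood in *CXCL8*, beginning 31 bases before the start, and in 10.7% of promoters. In *IL1A* it began 239 bases before the start, in only 1 of the entries of that gene. The 9 members had 10 entries, as *IL1A* had more than 1, whereas the shares of all promoters count each entry by itself. CAGGTG, the E-box that SNAI proteins bind, stood in 0 of the 9 and in 17.5% of promoters. These matches describe letters in a fixed window and were not tested as binding sites. *LIF* had no entry.

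Levels are given as CPM, counts per 1000000 counts of the library scaled by the TMM method. The libraries held 19527195 to 28627777 counts, so that 3 counts, taken as the detection floor of 1 library, lay between 0.105 and 0.154 CPM before scaling. Of the targeted gene *SNAI1*, 16, 38 and 21 counts were found in the WT libraries, 26, 40 and 49 in CS16 and 57, 94 and 94 in CS19. The labelled knockout was thus not visible as a lower count, and counts per gene do not show small edits. CS19, at 2.59 to 4.08 CPM, lay above every WT library at 0.789 to 2.17 CPM, whereas CS16 at 1.27 to 1.95 CPM overlapped with WT. The paper itself reports less *SNAI1* mRNA from each of the 3 exons by RT-qPCR, undetected protein, and deletions in the aligned reads. Of 8 genes that mark the mesenchymal MDA-MB-231 line, 7 were called lower in the libraries labelled *SNAI1*-KO, beside 14.3% of all genes tested. The 8 summed to 6602 to 7408 CPM in WT, 532.5 to 550.9 in CS16 and 502.8 to 542.2 in CS19. *CD44* had 37760 counts over the WT libraries, 0 in CS16 and 2 in CS19. The 3 genes *CDKN2A*, *CDKN2B* and *MTAP* at 9p21 were at 0 in every WT library, which allows up to 3 counts each, and summed to 164.0 to 181.9 CPM in the clones. Among 9 embryonic kidney markers 7 were tested. Of these, 6 passed the adjusted p higher in the clones and 1 lower, beside 31.1% and 32.6% of all genes tested. The 9 summed to 58.0 to 75.0 CPM in WT and 154.6 to 186.3 in the clones. Haematopoietic markers, which would mark leukocytes as another source of cytokine RNA, were low everywhere, with sums over 8 genes of 12.4 to 19.6 CPM in WT and 3.18 to 3.86 in the clones, and the leukocyte gene *PTPRC* had 20 counts in WT and 2 in the clones. Of the WT libraries, WT-2 stood apart, with a correlation of log2 CPM of 0.954 and 0.949 to the others, which correlated with each other at 0.990. The marker values go against the labelled cell line in the libraries of the clones, which may be another line, so loss of *SNAI1*, traits of single clones and another origin of the cells cannot be told apart in any fold change against WT. The part of the line markers and of WT-2 in the results was not tested beyond the values without WT-2 given with them.

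In the libraries labelled *SNAI1*-KO, 9 of the 10 transcripts were lower than in WT, from 8.68-fold for *CXCL2* to 463.9-fold for *IL6* over summed counts, and *CSF2* and *CXCL1* had no count there at all. *CXCL3* was the exception, with groups that overlapped. A gene was called when its log2 fold change was at least 2 in either direction and its p, from edgeR's quasi-likelihood test and adjusted over all genes tested by the method of Benjamini and Hochberg, was below 0.05. By that rule 9 of 10 members were called lower and 0 higher in the 6 libraries labelled *SNAI1*-KO, where 14.3% of all genes tested were called lower and 12.6% higher. In these 9 every WT library lay above every library of the clones, as in 28.6% of all genes tested. The same 9 were called lower in CS16, where 15.3% of all genes were, and in CS19, where 14.4% were. The WT libraries were common to these comparisons. The median log2 fold change of the 10 was -6.17 in both clones together, -7.10 in CS16 and -5.57 in CS19, or -6.15, -6.13 and -5.38 with genes that had no count in a clone set at their bound. The median of all genes tested was -0.0040, -0.027 and -0.0026, respectively. RNA was measured in bulk, so fewer cells making a transcript and less RNA per cell cannot be told apart.

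Among the WT libraries the 10 transcripts covered a wide range of levels. Per transcript length, in transcripts scaled to a fixed sum per library (TPM), the order of WT means was *LIF* at 42.7 ± 17.0, *IL11* at 30.2 ± 8.14, *CSF2* at 23.3 ± 6.41, *CXCL8* at 15.6 ± 8.07 and *IL6* at 15.1 ± 4.66 (SD, n = 3). Then came *CXCL2* at 7.65 ± 2.11, *CXCL1* at 5.24 ± 1.16, *IL1A* at 3.62 ± 1.60, *IL1B* at 2.54 ± 2.19 and *CXCL3* at 0.915 ± 0.586. The WT libraries of neighbours in this order overlapped except between *IL6* and *CXCL2*, although *CXCL8* in WT-2, at 6.32 TPM, also lay within the range of *CXCL2* from 5.57 to 9.78 TPM. *LIF* stood at the 89.1 percentile of the 35103 genes with a WT count and *CXCL3* at the 40.7 percentile. The summed level of the 10 was 122.2 to 164.7 TPM in WT, 2.29 to 3.70 in CS16 and 2.84 to 4.65 in CS19. Its make-up differed too, since *LIF* and *IL11* together with *CSF2* led in WT, whereas *CXCL3* and *CXCL2* had the highest means in CS16 at 0.964 ± 0.224 and 0.724 ± 0.566 TPM. In CS19 *LIF* at 1.33 ± 0.711 TPM came before *CXCL2* at 0.972 ± 0.406 and *CXCL3* at 0.780 ± 0.443, and these 3 overlapped with each other.

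Of the cytokines that signal through gp130, *IL6* and *IL11* were almost absent from the clones, whereas *LIF* was still detected in each of their libraries. *IL6* (chr7:22725884-22732002, plus strand), which drives acute-phase and STAT3 responses, had 248, 129 and 184 counts in the WT libraries, 2, 0 and 0 in CS16 and 1, 0 and 0 in CS19. Both counts of CS16 came from its replicate 1 and the single count of CS19 from its replicate 1, so 4 of the 6 libraries held none. The WT level was 9.68 ± 2.44 CPM. Over summed counts WT stood 463.9-fold above the clones, with an exact 95% counting interval of 157.9 to 2256. The fitted log2 fold change was -8.49 (SE 0.52, adjusted p = 6.57e-08) in both clones together, -8.03 in CS16 and -8.97 in CS19. Without CS16 replicate 1 it was -9.45 in both together, and it was -10.64 in CS16 without CS16 replicate 1 and -10.71 in CS19 without CS19 replicate 1, where no count was left. Intervals of this kind cover counting error only, as reads without molecular identifiers are not independent molecules. Of the *IL6* exon bases, 22.9% overlap exons of *STEAP1B* and *IL6-AS1* on the minus strand, and strand was not used in the counting, so a pair inside the overlap could not be assigned. *STEAP1B* itself had 2 to 4 counts in WT and 103 to 191 in the clones, opposite to *IL6*.

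*IL11* (chr19:55364382-55370463, minus strand), a stromal and bone-active cytokine, had 400, 539 and 481 counts in WT, 1, 4 and 3 in CS16 and 3, 0 and 2 in CS19. The groups were far apart, with the lowest WT library at 19.7 CPM and the highest of the clones at 0.191 CPM. Its log2 fold change was -8.01 (SE 0.38, adjusted p = 9.50e-09), with -7.60 in CS16 and -8.41 in CS19, the latter being -9.13 without CS19 replicate 1. *LIF* (chr22:30240453-30246759, minus strand), which maintains stem cells and is made by many carcinomas, had 779, 1225 and 859 counts in WT, 12, 7 and 15 in CS16 and 32, 57 and 31 in CS19. Here every library of the clones held counts and the clones did not overlap with each other. The log2 fold change was -5.55 (SE 0.46, adjusted p = 9.32e-07) in both together, -6.60 in CS16 and -4.91 in CS19. Exons of *LIF-AS1* and *LIF-AS2* overlap 4.37% of its exon bases, and *LIF-AS2* had 7 to 25 counts in WT and at most 2 in any library of the clones.

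The pair of IL-1 genes had counts in every library of the clones, some of them under the floor. *IL1A* (chr2:112773925-112784493, minus strand), whose product is active both in the nucleus and as a released alarmin, had 44, 53 and 28 counts in WT, 2, 5 and 10 in CS16 and 4, 5 and 5 in CS19. No library of the clones reached the lowest WT library, and all but CS16-1 were above the floor of 1 library. Its log2 fold change was -3.31 (SE 0.37, adjusted p = 1.14e-05), with -3.08 in CS16 and -3.49 in CS19. *IL1B* (chr2:112829751-112836816, minus strand), which is released as a mature cytokine after cleavage by inflammasome caspases, had 29, 77 and 20 counts in WT, 4, 2 and 2 in CS16 and 5, 6 and 4 in CS19. CS16-2 and CS16-3 were under the floor of 3 counts, and the groups did not overlap. The highest value was that of WT-2, at 4.39 CPM against 1.43 and 1.03 CPM in WT-1 and WT-3. The log2 fold change was -3.76 (SE 0.50, adjusted p = 4.82e-05), and -2.88 without WT replicate 2, when the gene was still called. The clones had -4.14 and -3.42 (CS16 and CS19), or -3.29 and -2.57 without WT replicate 2. *IL1A* and *IL1B* are 2 of 3 annotated genes within 62892 bases of chromosome 2, and in neither did a library of the clones overlap with WT.

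*CSF2* (chr5:132073789-132076170, plus strand), which encodes the growth factor GM-CSF of granulocytes and macrophages, had 139, 90 and 97 counts in WT and 0 in all 6 libraries of the clones. With 3 counts over the group as the floor, WT was at least 269.6-fold higher than both clones together, at least 126.1-fold higher than CS16 and at least 143.4-fold higher than CS19. It was called lower (adjusted p = 4.22e-06, edgeR's quasi-likelihood test). This was the only member besides *CXCL1* with no count in either clone.

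The CXC chemokines were the members that differed most from each other. *CXCL8* (chr4:73740541-73743716, plus strand), the main neutrophil attractant, had 274, 72 and 310 counts in WT, 0, 3 and 0 in CS16 and 2, 0 and 9 in CS19. The lowest WT value came from WT-2, at 4.11 CPM against 13.5 and 15.9 CPM, and the counts of CS16 came from replicate 2 alone. The log2 fold change was -6.78 (SE 0.69, adjusted p = 4.84e-06), -7.17 without WT replicate 2 and -7.78 without CS19 replicate 3, which held 9 of the 14 counts of the clones. By clone it was -7.73 in CS16 and -6.22 in CS19, and -10.82 in CS16 without CS16 replicate 2 and -7.72 in CS19 without CS19 replicate 3. Over summed counts WT stood 253.8-fold above CS16, with a counting interval of 86.5 to 1234.

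*CXCL1* (chr4:73869393-73871308, plus strand), first known as a growth factor of melanoma cells, had 47, 27 and 57 counts in WT and 0 in all 6 libraries of the clones. WT was at least 108.3-fold higher than both clones, at least 50.7-fold higher than CS16 and at least 57.6-fold higher than CS19, and the gene was called lower (adjusted p = 2.98e-05, edgeR's quasi-likelihood test). *CXCL2* (chr4:74097040-74099196, minus strand), a close relative, had 80, 54 and 55 counts in WT, 11, 3 and 6 in CS16 and 14, 6 and 14 in CS19. Unlike *CXCL1* it was thus detected in every library of the clones, although the groups did not overlap. Its log2 fold change was -3.10 (SE 0.36, adjusted p = 1.67e-05), with -3.38 in CS16, or -4.01 without CS16 replicate 1, and -2.82 in CS19.

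*CXCL3* (chr4:74036589-74038807, minus strand), the third of these neutrophil attractants, had 14, 3 and 22 counts in WT, 15, 17 and 13 in CS16 and 9, 20 and 12 in CS19. All the values of the clones lay between the lowest WT library, WT-2, and the highest, WT-3. The mean level was 0.664 ± 0.480 CPM in WT (SD, n = 3), 0.688 ± 0.153 in CS16 and 0.556 ± 0.269 in CS19. The log2 fold change of -0.12 (SE 0.48, adjusted p = 0.843) was not called, and over summed counts WT stood 1.12-fold above the clones with a counting interval of 0.750 to 1.66. A difference like those of *CXCL1* and *CXCL2* lay outside that interval. The interval covers counting error only, not the spread from 3 to 22 counts between WT libraries, so it cannot exclude such a difference. The fitted log2 fold change of *CXCL2* was -3.10 (SE 0.36). The sign of the *CXCL3* fold change was not stable, since it was -0.56 without WT replicate 2 and 0.50 without WT replicate 3, neither being called.

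**Figure D1:**
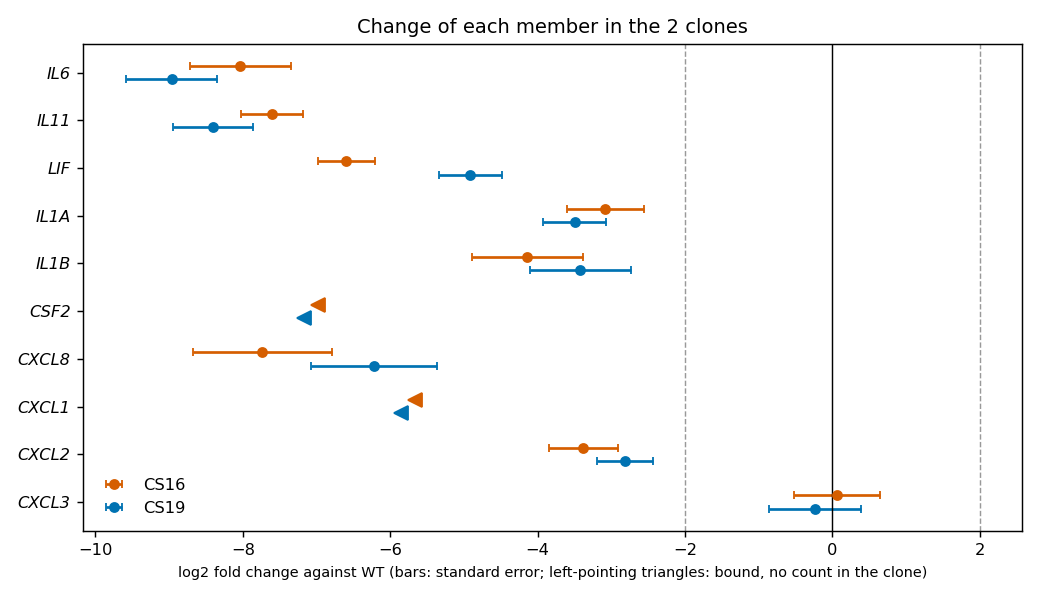
Log2 fold change (x axis) of each member (y axis) in CS16 and in CS19 against the same 3 WT libraries. The bar is the SE derived from the F statistic of the test, which can be too short for genes with few counts. Dashed lines mark the fold-change cut-off of 2 in either direction, and left-pointing triangles are the bounds for *CSF2* and *CXCL1*, which had no count in a clone. All points except those of *CXCL3* lie left of the cut-off.

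*CXCL1*, *CXCL2* and *CXCL3* are close copies, and their counts need care. Their coding sequences were 93.5% (*CXCL1* and *CXCL2*), 90.7% (*CXCL1* and *CXCL3*) and 94.4% (*CXCL2* and *CXCL3*) identical over 321 bases, against 52.4% to 54.0% with *CXCL8*. The deposited counts kept only pairs with a mapping quality of at least 30, which removes pairs that fit more than 1 copy, so the levels of these 3 genes relative to each other are uncertain. In the clones *CXCL1* had 0 counts beside 9 to 20 of *CXCL3* in each library. Within the cluster, 18 genes are annotated over the 358656 bases from *CXCL8* to *CXCL2*, and 6 of them had a count in any library. Besides the members these were *CXCL5*, a further neutrophil attractant with 2 counts in WT-2, and an unnamed gene with 1 count. The platelet chemokine genes *PPBP*, *PF4* and *PF4V1* and the chemokine gene *CXCL6* were listed at 0 in all 9 libraries, so that counts in this stretch came almost entirely from members.

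Between the clones, the members could be compared only where they were still expressed. The filter on low counts kept 3 of the 10 in the comparison of CS16 with CS19, namely *LIF*, *CXCL2* and *CXCL3*, and 0 were called, where 1.13% of all genes were called in either direction. *LIF* was lower in CS16 than in CS19 by a log2 fold change of -1.66 (SE 0.39, adjusted p = 0.00618, edgeR's quasi-likelihood test), which passed the adjusted p but not the fold-change cut-off, as 27.4% of all genes did at that adjusted p. Mean levels were 0.506 ± 0.149 CPM for CS16 and 1.65 ± 0.747 CPM for CS19, each over 3 libraries with the SD. *CXCL2* had a log2 difference of -0.57 (SE 0.52, adjusted p = 0.461), which was -1.20 without CS16 replicate 1, and *CXCL3* of 0.31 (SE 0.40, adjusted p = 0.621). The other 7 members had at most 10 counts in any library of either clone, and differences between the clones were not detectable at this depth.

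Receptor genes of these and of other cytokines moved in both directions. The list counted here included *OSMR*, *ACKR3* and the TNF and IL-17 receptor genes, which do not encode receptors of the members. Of 19 receptor and decoy genes listed, 12 were tested, of which 8 passed the adjusted p lower, 2 passed it higher and 2 did not pass, beside 32.6% of all genes lower and 31.1% higher. With the fold-change cut-off 6 were called lower and 1 higher. Without WT replicate 2 all 12 passed, 8 lower and 4 higher. In the gp130 family, the private receptor gene *IL6R* was higher in the clones, with 13, 12 and 14 counts in WT, 173, 151 and 153 in CS16 and 207, 195 and 219 in CS19 (log2 fold change 3.51, SE 0.25, adjusted p = 2.21e-07). *IL6ST*, which encodes gp130 itself, went the other way at -2.45 (SE 0.27), from 273.7 to 752.7 CPM in WT to 89.0 to 132.7 CPM in the clones. *OSMR*, the oncostatin M receptor, had 3970, 3274 and 3275 counts in WT and 10 to 19 in the clones, a log2 fold change of -8.39 (SE 0.22). *LIFR*, the chain that binds LIF, was at -0.91 (SE 0.25, adjusted p = 0.00806). *IL11RA*, the chain for IL-11, was at 0.47 (SE 0.22, adjusted p = 0.0818) and did not pass, although it did without WT replicate 2 (0.67, adjusted p = 0.0132). The lowest WT value of both *IL6ST* and *LIFR* was that of WT-2, and *LIFR* in WT-2 at 99.4 CPM lay among the clones at 72.8 to 122.8 CPM. Without WT replicate 2 their log2 fold changes were -2.79 and -1.21.

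For the IL-1 pair, the signaling receptor gene *IL1R1* was called lower at -3.84 (SE 0.24), from 20.7 to 23.6 CPM in WT to 0.982 to 2.45 CPM in the clones. Its partner *IL1RAP* was lower at -1.03 (SE 0.19, adjusted p = 0.000501), short of the cut-off. *IL1RN*, the natural antagonist of this receptor, was too low to be tested, with 14, 9 and 9 counts in WT and 0 in all libraries of the clones, which makes WT at least 26.5-fold higher, and the decoy *IL1R2* had at most 8 counts in any library. The chemokine receptors were near absent in all groups, with *CXCR1* at 0 everywhere and *CXCR2* at 2 counts or fewer, so the receptors of the CXC members were not detected in the cells that had the ligands. *ACKR3*, an atypical chemokine receptor, had 42, 31 and 31 counts in WT and 3, 0 and 0 in CS16 and 0 in CS19 (log2 fold change -6.07, SE 0.67). *CSF2RB*, the signaling chain for GM-CSF, had at most 2 counts. *CSF2RA* was listed at 0 in all libraries, and since it lies in the region shared by the X and Y chromosomes, where pairs can match both copies, that 0 carries no information under a filter on mapping quality.

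Receptors of cytokines that induce the members in other cells were tested as well. *TNFRSF1A* and *TNFRSF1B*, the TNF receptors, were called lower at -2.13 (SE 0.17) and -6.84 (SE 0.51). Without WT replicate 2 *TNFRSF1A*, at -1.92, was short of the cut-off. It was still at 20.2 to 26.6 CPM in the clones, whereas *TNFRSF1B* was at 0.524 CPM or less. *IL17RB* was higher at 1.88 (SE 0.16, adjusted p = 1.22e-06), short of the cut-off, and *IL17RA* was at 0.52 (SE 0.30, adjusted p = 0.143) and did not pass. Its level in WT-2, 41.6 CPM, stood apart from 15.5 and 15.6 CPM in the other WT libraries, and without WT replicate 2 it passed higher at 1.16 (adjusted p = 1.88e-05). Across these receptor genes, the clones lacked *OSMR*, *TNFRSF1B* and *ACKR3* almost wholly. They kept *IL6ST*, *LIFR*, *IL1RAP*, *IL17RA*, *IL17RB* and *TNFRSF1A* at 11.9 CPM or more.

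The pathway that gp130 receptors use was lower in part. Of 14 genes of JAK-STAT3 signaling and its feedback, all tested, 10 passed the adjusted p lower, 1 higher and 3 did not pass. With the fold-change cut-off 4 were called lower. Of all genes tested, 32.6% passed lower, 31.1% passed higher and 14.3% were called lower. *SOCS3*, the feedback inhibitor that STAT3 induces, was called lower at -5.69 (SE 0.29), from 43.9 to 58.4 CPM in WT to 0.573 to 1.52 CPM in the clones. *STAT5A* was called lower at -8.52 (SE 0.56) and *STAT3* itself was at -1.59 (SE 0.15, adjusted p = 3.01e-06), with 64.5 to 71.5 CPM left in the clones. *JAK2*, a receptor-bound kinase, was higher at 0.56 (SE 0.20, adjusted p = 0.0284), and without WT replicate 2 at 0.34.

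Genes that process IL-1 or carry the signals of its receptor and of Toll-like receptors were mostly lower. Of 23 listed, 22 were tested and 15 were called lower, beside 14.3% of all genes tested. Of the 22, 19 passed lower, 0 higher and 3 did not pass, beside 32.6% of all genes lower and 31.1% higher. The smallest adjusted p values were those of *GSDMD*, which forms the pore that releases IL-1, at -9.51 (SE 0.39), *NLRP1*, an inflammasome sensor, at -10.45 (SE 0.43), and *TLR2*, a receptor of bacterial lipopeptides, at -10.03 (SE 0.50). *NLRP1* had 588 to 1291 counts in WT and at most 1 in any library of the clones. *CASP4*, an inflammatory caspase, and *TLR4*, the endotoxin receptor, had no count in the clones, so that WT was at least 972.4-fold and at least 872.3-fold higher. *TRAF6*, an adaptor common to these receptors, was at 0.22 (SE 0.15, adjusted p = 0.214) and did not pass.

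Of 20 genes of NF-kB subunits, regulators and targets, all tested, 16 passed the adjusted p lower, 1 higher and 3 did not pass. With the fold-change cut-off 8 were called lower. The shares of all genes tested were 32.6% passing lower, 31.1% passing higher and 14.3% called lower. The subunit gene *RELB* was called lower at -4.16 (SE 0.26), the target and inhibitor of cell death *BIRC3* at -7.52 (SE 0.45) and the adhesion molecule *ICAM1*, a classic target, at -7.72 (SE 0.30). *REL*, another subunit, was higher at 1.03 (SE 0.18, adjusted p = 0.000345), short of the cut-off. *CHUK* and *NFKBIB*, a kinase of the pathway and an inhibitor, were at 0.42 (SE 0.24) and 0.37 (SE 0.27) and did not pass, the latter passing at 0.92 (adjusted p = 0.000133) without WT replicate 2. The median of the list was -1.49.

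Of 14 AP-1 and C/EBP factors, all tested, 10 passed lower, 3 higher and 1 did not pass, beside 32.6% of all genes lower and 31.1% higher. With the fold-change cut-off 6 were called lower and 1 higher, beside 14.3% and 12.6% of all genes. *FOSL1* and *FOSL2*, which like *FOS* and *FOSB* encode FOS-type subunits of AP-1, were called lower at -8.73 (SE 0.62) and -5.63 (SE 0.27). *FOS* was at 3.18 to 3.65 CPM in WT and 0.818 to 1.83 CPM in the clones. *FOSB* was at 1.28 to 3.14 CPM in WT and 0.173 to 0.517 CPM in the clones. *FOSL1* had 1421, 7975 and 1501 counts in WT, of which the highest was WT-2, and 6 to 16 in the clones, and its log2 fold change without WT replicate 2 was -7.28. Without that library 4 factors of the list were called lower. *BATF* was called lower at -7.59 (SE 0.54). In contrast *CEBPA*, a factor of differentiation, was called higher at 6.98 (SE 0.51), from 1 count or fewer in WT to 83 to 213 in the clones, and *ATF3* and *CEBPG* were higher at 1.82 (SE 0.29) and 0.88 (SE 0.20), short of the cut-off. Of 12 genes that govern the decay of AU-rich cytokine transcripts, all tested, 6 passed lower, 1 higher and 5 did not pass. The shares of all genes tested were 32.6% lower and 31.1% higher. With the fold-change cut-off 2 of the 12 were called lower, beside 14.3% of all genes. Without WT replicate 2, 6 passed lower and 3 higher. *ZFP36*, which speeds the decay of such transcripts, was called lower at -3.42 (SE 0.39), from 2.57 to 6.45 CPM in WT to 0.239 to 0.668 CPM in the clones. *MAPK14* and *MAPKAPK2*, the p38 kinase and its target kinase, were lower at -1.73 (SE 0.18) and -1.58 (SE 0.18), *TIA1* was higher at 1.04 (SE 0.22), and *RC3H1* was at 0.26 (SE 0.12, adjusted p = 0.0801) and did not pass, but did without WT replicate 2 (0.32, adjusted p = 0.0123).

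Other ligands were looked at from the same fit. Of 23 other cytokines and CC chemokines, 16 were tested, with 12 called lower, 1 called higher and 3 that did not pass. Among all genes tested 14.3% were called lower and 12.6% higher. *TNFSF10*, which encodes the death ligand TRAIL, had 2203, 1068 and 2125 counts in WT and 1 or 2 in each library of the clones (log2 fold change -10.12, SE 0.29). *IL18*, a relative of the IL-1 genes, was called lower at -7.40 (SE 0.26), and *TNFSF15* at -9.91 (SE 0.52). *TSLP*, an epithelial alarmin, was the 1 called higher, with 0 counts in WT, 42, 31 and 34 in CS16 and 9, 17 and 18 in CS19, which makes the clones at least 20.3-fold higher (adjusted p = 0.000493). *IL23A* and *IL12A*, which encode subunits of the cytokines IL-23 and IL-12, were at 0.66 (SE 0.39) and 0.28 (SE 0.36) and did not pass. Of 13 other CXC chemokines only *CXCL11* and *CXCL16* passed the filter, and both were called lower: *CXCL11*, a T cell attractant, had 46, 11 and 37 counts in WT and 0 in the clones, at least 77.7-fold lower, and *CXCL16* was at -3.52 (SE 0.33).

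The members moved unevenly in WT-2, and this touches the sizes given above. The level in WT-2 was 3.58 times the mean of WT-1 and WT-3 for *IL1B*, 1.69 times for *LIF*, 1.68 times for *IL1A* and 1.38 times for *IL11*. It was 0.910 times that mean for *CXCL2*, 0.868 times for *CSF2*, 0.679 times for *IL6*, 0.587 times for *CXCL1*, 0.279 times for *CXCL8* and 0.188 times for *CXCL3*. Over 19622 of the 19631 genes tested, the log2 shift of WT-2 rose with the GC content of exons, with r = 0.62 (Spearman's rho 0.64) across genes, which are not independent replicates, against r = 0.13 for WT-3 minus WT-1. *CXCL8*, with 32.1% GC, and *LIF* and *IL11*, with 57.1% and 57.7%, lay within the 10th to 90th percentile of genes of their GC content, while *IL1A* and *IL1B* lay above that range and *CXCL3* below it. Across the 10 members r was 0.39. The part of GC content in the level of any member was not tested. All 9 members called lower were also called without WT replicate 2.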

How the data were processed

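RNA of 9 libraries labelled MDA-MB-231 was depleted of ribosomal RNA and sequenced from both ends with a stranded kit. The authors trimmed the reads with Trimmomatic 0.36, aligned them with STAR 2.7.2b to GRCh38.p13 and counted pairs on gencode release 38 with featureCounts (Subread 2.0.0), with a mapping quality of at least 30 and without strand. The deposited values were raw counts per gene for each library, neither normalized nor pooled, and totals of 19527195 to 28627777 set the precision of low values. Grouping followed the labels.

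From these counts, genes were filtered with filterByExpr, scaled by TMM and tested across all genes with edgeR 4.0.16 (quasi-likelihood test, two-sided, Benjamini-Hochberg adjustment) in R 4.3.3. The 6 libraries labelled *SNAI1*-KO, CS16 and CS19 were each compared with WT, and CS16 with CS19. TPM used the exon lengths in the files. Bounds used a floor of 3 counts over the group, and intervals were exact at 95%. The script was tested on simulated data. Python 3.11.15, pandas 2.3.3, numpy 2.4.6, scipy 1.17.1, matplotlib 3.10.9 and biopython 1.88 served for the rest.

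GC content was that of the counted exons, at their coordinates in gencode release 38. Coding sequences came from gencode release 44 on the same build, in which the bounds of 9 of the 10 members were the same and *CXCL8* differed in its start. Promoters came from RefSeq (GRCh38.p14), where 9 of 10 members matched by symbol.

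The members, the gene lists and the rule for naming genes were chosen with earlier results of these data known, and no p was adjusted over a list. Named genes were all members, all receptors and decoys tested, in each other list the 3 tested genes of smallest adjusted p for either direction, the 5 other genes most like the members' mean, and *SNAI1*. Genes named besides, such as *IL1RN*, *IL1R2*, *CXCR1*, *CXCR2*, *CSF2RA*, *CSF2RB*, *CXCL5*, *STEAP1B*, *CASP4*, *TLR4* and *PTPRC*, were chosen after their values were seen. Lists were other CXC chemokines, other cytokines, receptors, JAK-STAT3, IL-1 and Toll-like receptor signaling, NF-kB, AP-1 and C/EBP, decay of AU-rich transcripts, and line, 9p21, luminal, haematopoietic and embryonic kidney markers, of which 1 gene is not reported here. Alternatives were DESeq2 1.42.0, RLE and upper-quartile normalization, CPM by library total, no filter, at least 10 counts in 3 libraries, no fold-change cut-off or one of 1, a block for the replicate number, one fit over all 3 groups, and omission of each library in turn.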

Additional observations from a re-analysis of the deposited data

Results flagged for a closer look

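Among the genes named by the rule, 19 passed the adjusted p of edgeR's quasi-likelihood test between the 2 clones, so their change against WT differed by clone. *FOXA1* was called lower in CS16 than in CS19, at a log2 difference of -2.31. *LIF* was lower there at -1.66, as were *BIRC3* at -1.61, *IL12A* at -0.81, *HOXA11* at -0.58, *CEBPA* at -0.53, *KRT18* at -0.51, *EYA1* at -0.33, *IL17RA* at -0.28, *JAK2* at -0.27, *MAPK14* at -0.27 and *CEBPG* at -0.21. *TSLP* was higher in CS16 at 1.47, as were *KRT8* at 0.74, *ATF3* at 0.71, *LIFR* at 0.55, *SALL1* at 0.46, *IL6ST* at 0.45 and *MAPKAPK2* at 0.23. Of these 19 only *FOXA1* passed the fold-change cut-off, and 27.4% of all genes passed the same adjusted p between the clones. The 19 are a count and not a share of the named genes tested between the clones, so they cannot be compared with that percentage.

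In 70 genes the 6 libraries of the clones were checked for a single library far from the rest, and 10 had one. A rate of about 1 in 20 by chance does not hold for genes at a few counts, so no excess can be read from this number. *CHUK* was at 132.7 CPM and *NFKBIB* at 23.6 CPM in CS16-2. The others were at a few counts at most, with *TNFSF10*, *BATF* and *KRT19* at 0.0327 CPM and *PAX8* at 0.0655 CPM in CS19-3, *TNFSF15* at 0.136 CPM in CS19-1, *ACKR3* at 0.147 CPM in CS16-1 and *TLR2* and *CD44* at 0.0867 CPM in CS19-2. No member was among them.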

How the results depend on the processing

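The 9 members called lower against WT stayed at 9 in each of the 3 comparisons with WT under every alternative run, and 444 of 449 member fold changes and all 26 mean levels kept their direction and call. The 5 others were those of *CXCL3*, whose sign turned when 1 library was left out, over ranges of -0.56 to 0.50 in both clones together, -0.41 to 0.66 in CS16 and -0.70 to 0.36 in CS19. None of these was called. Between the clones 1 member, *LIF*, counted with no fold-change cut-off or one of 1. Over all genes, the number called in both clones against WT was 5272, and 12506 with no cut-off, 9251 with one of 1, 8662 with no filter and 7662 with DESeq2. For CS16 it was 5045, and 10342, 8567 and 6880 with no cut-off, one of 1 and DESeq2. For CS19 it was 4990, and 10014, 8309, 7513 and 6871 with no cut-off, one of 1, no filter and DESeq2. Between the clones it was 198, and 4814, 833 and 352 with no cut-off, one of 1 and no filter. Leaving out 1 library each gave 5165 to 5963, 5176 to 5823, 5167 to 5743 and 224 to 258 genes. Libraries of like number shared only the number (correlations of their deviations of -0.206 to 0.190), and with the replicate block the counts were 5220, 4943, 4921 and 201 genes and 9, 9, 9 and 0 members. For these counts the cause was not tested. Depth limits the members at 10 counts or fewer in the clones, for which folds rest on single counts.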

Other observations

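The 5 genes whose log2 CPM over the 9 libraries was most like the mean of the 10 members were *PSMB8*, an immunoproteasome subunit (r = 0.999), *ELK3*, *TMBIM1*, *ACSM4* and *COL12A1*. These points share the split of WT from the clones, and 3564 of 19621 genes compared had r of at least 0.9.

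Of 10 mammary luminal markers, 6 were tested in the libraries labelled *SNAI1*-KO. Of these, 5 were called lower and 1 higher, beside 14.3% and 12.6% of all genes tested. The keratin genes *KRT8*, *KRT18* and *KRT19* of simple epithelia were at log2 fold changes of -8.32, -3.25 and -15.01, while *FOXA1*, a luminal transcription factor, was at 7.94. The summed level of the 10 was 1456 to 2169 CPM in WT, 55.8 to 57.0 in CS16 and 82.1 to 97.7 in CS19. *AXL* and *LGALS1*, a receptor kinase and a galectin of mesenchymal cells, were at -12.54 and -8.03. Among kidney developmental factors, *HOXA11*, *SALL1* and *EYA1* were called higher at 12.59, 11.72 and 3.58, and *PAX8* lower at -9.68. The monocyte genes *CD14* and *CSF1R* were called lower at -5.65 and -4.10.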
